A study of Homo sapiens with 12 samples.

Results

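The keratin family was examined in RNA-seq counts of HT1376, a human bladder cancer cell line. Members were all genes of the count table whose symbol is KRT followed by a number and, in some, a letter A to C, which gave 55 of 60666 genes. HT1376 CT, the control clone that the sample labels call wild type, carries a CRISPR guide against luciferase. HT1376 FOXP3 KO was edited with guides against exon 2 of FOXP3, and each line was either left untreated or exposed for 48 hours to IFNγ at 100 ng/mL. The 4 groups have 3 libraries each, numbered 11, 12 and 13. Both lines went through lentiviral infection and puromycin selection and each is 1 single-cell clone, so a difference between the lines cannot be told apart from a difference between clones. Nothing in the labels says that the libraries of a group came from separate cultures, so p-values measure only the spread between these libraries.

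Keratins are the intermediate filament proteins of epithelial cells. Each filament is built from pairs of an acidic type I and a basic type II keratin, and most epithelia use fixed partners: KRT5 with KRT14 in basal cells, KRT8 with KRT18 in simple and luminal cells, KRT1 with KRT10 in the differentiating layers of skin, KRT4 with KRT13 in those of internal stratified epithelia, and KRT6 with KRT16 or KRT17 in stressed or regenerating epithelium. In urothelium, KRT5 and KRT14 mark basal cells and KRT20 marks umbrella cells, and the same genes are used to separate basal from luminal bladder cancers.

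Of the 55 members, 29 were type I and 26 type II. The type II genes lie in 1 cluster on chromosome 12 together with the type I gene KRT18, and the other 28 type I genes lie on chromosome 17 (GRCh38). Counts were at 0 in every library for 4 members (KRT26, KRT37, KRT82 and KRT85), at most 3 per library for 17 in all, and above 3 in some library for 38. All 8 basal and all 5 luminal keratins were among these 38, with 10 of 11 suprabasal, 4 of 9 hair root sheath, 6 of 17 hair keratins and 5 others. The libraries held 4490684 to 39270042 counts, and keratins took 0.370% to 0.628% of them. FOXP3 was at or below 3 counts in every library of both lines, so its count does not check the labels.

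Some keratins have near-identical copies elsewhere in the genome, and the following coding stretches show how KRT6A differs from KRT6B and KRT6C. They are printed because reads of KRT6A can be told apart from those of its copies only at such positions. Each is the 60-base stretch within 1 exon, here exon 1, in which KRT6A differs most from its copies, leaving out the ends of the coding sequence and, as possible gaps, stretches with more than 9 differences. They are written 5′ to 3′ on the gene's strand with the positions that differ in capitals. They were read from the GENCODE 44 transcripts on GRCh38, at chr12:52492694-52492753 for KRT6A, chr12:52451584-52451643 for KRT6B and chr12:52473243-52473302 for KRT6C, all on the minus strand.
KRT6A: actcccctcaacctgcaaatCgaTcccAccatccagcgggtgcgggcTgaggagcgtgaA
KRT6B: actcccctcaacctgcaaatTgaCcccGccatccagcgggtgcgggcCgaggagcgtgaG
KRT6C: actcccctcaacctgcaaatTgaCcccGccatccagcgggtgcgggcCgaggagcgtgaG

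KRT6A differed from both copies at 5 of the 60 positions. KRT6B and KRT6C were identical over these positions, so the stretch does not separate them from each other. In all, 24.2% of the 100-base stretches of the KRT6A coding sequence occurred unchanged in KRT6B or KRT6C. The rows of these copies held 3.71% of the counts of the 3 genes, and the KRT6A call given below was kept with the copies summed. For KRT16 and its pseudogene KRT16P6, 0 of 1320 such stretches were shared. How reads with several matches were counted is not given in the sources used here.

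The most abundant keratins were a mixture of the basal keratin KRT14 and the luminal keratins KRT18, KRT19, KRT8 and KRT7. Genes were set side by side on a scale of CPM (counts scaled to the normalized library size) per kilobase of exon. On this scale KRT18 led in HT1376 CT with 492 ± 39.3 (SD, n = 3), followed by KRT14 (286 ± 63.2), KRT19 (284 ± 63.7), KRT8 (168 ± 6.32) and KRT7 (161 ± 30.5). The libraries of KRT14 and KRT19 overlapped, as did those of KRT8 and KRT7, so neither pair can be ordered. In HT1376 FOXP3 KO the order was KRT14 (439 ± 100.3), KRT18 (365 ± 93.7), KRT7 (308 ± 75.9), KRT19 (280.4 ± 117) and KRT8 (174 ± 26.2), and each of these overlapped its neighbour. In every group these 5 genes were the top 5, and the 6th keratin was clearly below them. The order among the 5 rests on gene length. By mean CPM without length correction it was KRT18 (1509.6), KRT8 (1153.5), KRT19 (663), KRT7 (645) and KRT14 (644) in untreated HT1376 CT. In untreated HT1376 FOXP3 KO it was KRT7 (1230.8), KRT8 (1197.5), KRT18 (1118.8), KRT14 (990) and KRT19 (655).

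The basal partners did not appear at like levels. KRT5, the usual type II partner of KRT14, had 0.887 ± 0.718 CPM per kilobase in untreated HT1376 CT and 1.24 ± 1.06 in HT1376 FOXP3 KO. By library, the KRT5 level was 7.08, 1.75 and 2.17 CPM in HT1376 CT, 4.74, 0.692 and 2.91 with IFNγ, 2.06, 3.21 and 10.1 in HT1376 FOXP3 KO, and 0.669, 2.56 and 10.7 with IFNγ. The 4 groups overlapped and KRT5 passed no test. The umbrella cell keratin KRT20 was near absent, with at most 6 counts in any library (0.257 CPM) and 0 in all 3 untreated HT1376 CT libraries. KRT18, the type I luminal marker, had 1547, 1375 and 1607 CPM in HT1376 CT, 1551, 1273 and 1542 with IFNγ, 1245, 789.8 and 1321 in HT1376 FOXP3 KO, and 1255, 810.3 and 1407 with IFNγ. The untreated HT1376 FOXP3 KO libraries all lay below those of HT1376 CT, and KRT18 was not called without a replicate block (its values with one are given with the comparison of the lines).

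**Figure D1:**
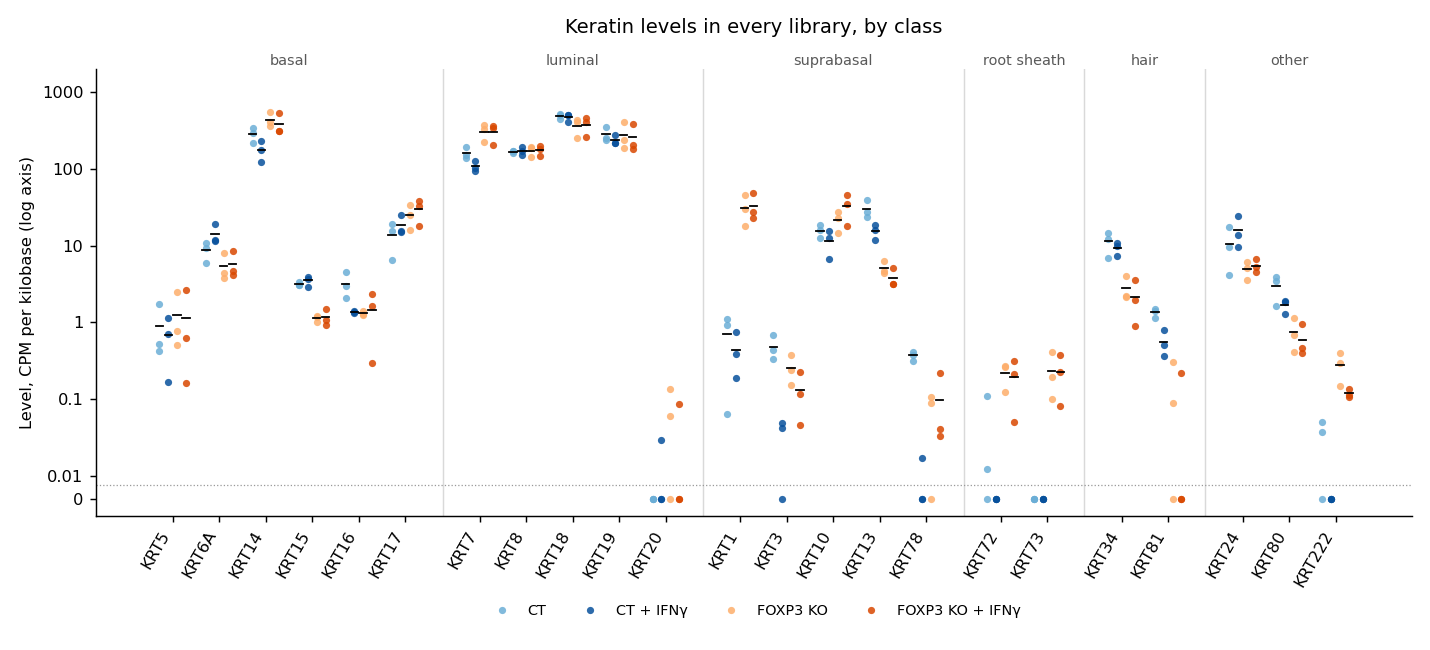
Level of the 21 named keratins and of KRT8 and KRT19 in each of the 12 libraries, in CPM per kilobase on a log axis with 0 drawn under the dotted line, grouped by keratin class; points are libraries and black bars are means of the 3 libraries, drawn where no library is at 0. KRT14 and 4 luminal keratins lie near or above 100 in every group, KRT5 stays near 1, and KRT1 is far higher in the FOXP3 KO libraries.

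The balance of basal and luminal keratins was summed per library. The basal list (KRT5, KRT14, KRT15, KRT17, KRT6A, KRT6B, KRT6C and KRT16) made up 26.3%, 17.4% and 22.7% of the summed basal and luminal level in HT1376 CT, and 20.6%, 14.2% and 18.2% with IFNγ. In HT1376 FOXP3 KO it made up 26.3%, 27.9% and 34.1%, and with IFNγ 23.0%, 26.3% and 32.7%. The untreated lines thus met at the library numbered 11, while under IFNγ the lines did not overlap. Within each line, the IFNγ library was below the untreated library of the same number in all 3 pairs. The means were 22.1% ± 4.49 and 17.6% ± 3.23 in HT1376 CT and 29.4% ± 4.12 and 27.3% ± 4.93 in HT1376 FOXP3 KO (SD, n = 3). These shares sum over members and are given without a test, and KRT14 supplied most of the basal sum. With the longest transcript in place of all exons as gene length they were 17.9%, 14.3%, 23.1% and 21.4%.

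Type I keratins exceeded type II keratins in summed level per kilobase in each library. The ratio was 3.82, 3.25 and 2.98 in HT1376 CT, 3.32, 3.32 and 3.002 with IFNγ, 1.85, 2.79 and 2.13 in HT1376 FOXP3 KO, and 1.80, 2.71 and 2.03 with IFNγ. The lines did not overlap, with the higher type II keratin KRT7 on the side of HT1376 FOXP3 KO. The ratio rests on gene length: with no length correction the group means were 1.66, 1.55, 1.18 and 1.15, and type I was below type II in library 11 of HT1376 FOXP3 KO, both untreated (0.994) and with IFNγ (0.969).

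**Figure D2:**
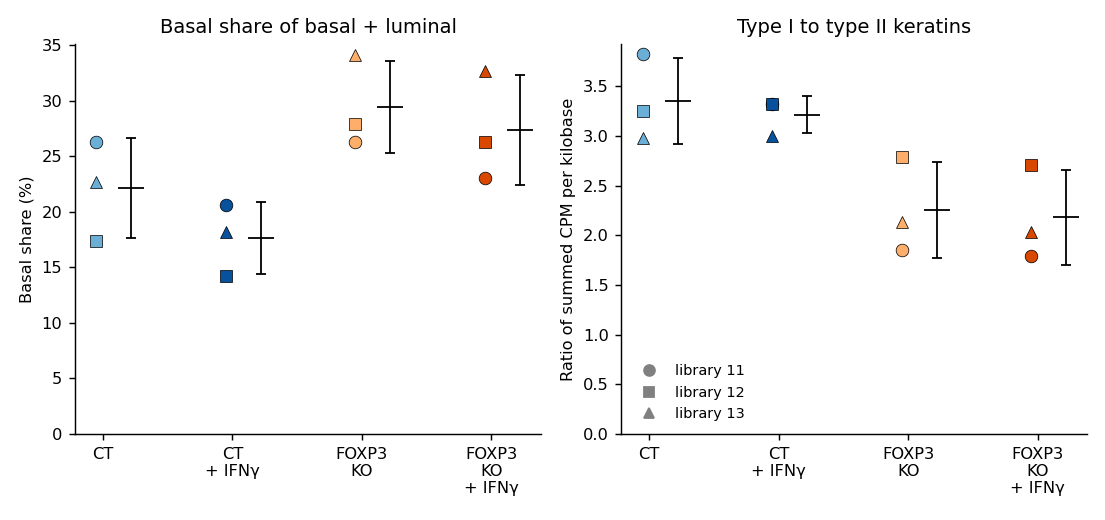
Left, basal keratins as a percentage of the summed basal and luminal keratin level; right, ratio of summed type I to summed type II keratin level, both from CPM per kilobase. Each symbol is 1 library, its shape gives the library number, and bars are mean ± SD (n = 3); the type ratio is 2.98 or above in HT1376 CT and 2.79 or below in HT1376 FOXP3 KO.

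To ask which keratins differ between the lines, HT1376 FOXP3 KO was first compared with HT1376 CT without IFNγ. Of the 33 keratins tested, HT1376 FOXP3 KO had 5 at higher and 7 at lower levels (edgeR quasi-likelihood test, Benjamini-Hochberg adjusted p under 0.05). That is 15.2% and 21.2% of them, against 14% of all 25320 genes tested that were called higher and 18.2% that were called lower, so the family differed about as often as other genes. The median log2 fold change was 0.07 over the 33 keratins and -0.02 over all genes tested. Type I keratins gave 2 of the higher and 4 of the lower calls, and type II keratins 3 of each.

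KRT1, a keratin of the suprabasal layers of skin, showed the largest change among the well counted keratins. Its level was 2.75, 0.159 and 2.30 CPM in HT1376 CT and 75.2, 45.4 and 114 CPM in HT1376 FOXP3 KO, without overlap. The log2 fold change was 5.38 ± 0.51 (SE), or 41.6-fold (edgeR adjusted p = 1.68e-05). KRT10, its usual partner, had 40.5, 27.2 and 34.4 CPM in HT1376 CT and 49.9, 31.8 and 59.8 in HT1376 FOXP3 KO, which overlapped (log2 difference 0.49 ± 0.21, edgeR adjusted p = 0.108). On the length-corrected scale, KRT1 and KRT10 stood at 0.698 ± 0.557 and 15.7 ± 3.09 in HT1376 CT and at 31.4 ± 13.7 and 21.8 ± 6.57 in HT1376 FOXP3 KO.

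The basal keratin KRT14 and the simple epithelial keratin KRT7 were also higher in HT1376 FOXP3 KO. KRT14 had 776, 493 and 663 CPM in HT1376 CT and 915, 811 and 1244 in HT1376 FOXP3 KO, a log2 fold change of 0.64 ± 0.18 (edgeR adjusted p = 0.0212). The groups did not overlap, but the call was lost without HT1376 CT library 12 (0.51), HT1376 CT library 13 (0.68) or HT1376 FOXP3 KO library 13 (0.49), and with all 12 libraries in 1 fit (0.63). KRT7 had 552, 600.4 and 783 CPM against 1481, 893 and 1318, a log2 fold change of 0.95 ± 0.18 (edgeR adjusted p = 0.00238) that was called under each alternative run. KRT17, a basal keratin often induced in squamous and stressed epithelium, had 46.5, 19.6 and 57.1 CPM against 48.1, 101 and 75.6 and did not pass (edgeR adjusted p = 0.0754).

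Among keratins lower in HT1376 FOXP3 KO, KRT13, the partner of KRT4 in internal stratified epithelia and in urothelium, was the most abundant. Its level was 114, 69.8 and 80.2 CPM in HT1376 CT and 13.6, 12.8 and 18.3 in HT1376 FOXP3 KO, a log2 fold change of -2.54 ± 0.20 (edgeR adjusted p = 4.69e-06). KRT15, a basal and stem cell keratin, had 18.3, 18.2 and 19.7 CPM against 6.04, 7.22 and 6.91 (log2 -1.47 ± 0.17, edgeR adjusted p = 6.03e-05). Both pairs of groups lay well apart, so that KRT15 moved opposite to the basal keratin KRT14. KRT80, found in filaments near desmosomes, had 7.20, 15.1 and 16.8 CPM against 4.93, 1.78 and 2.99 (log2 -1.95 ± 0.38, edgeR adjusted p = 0.00273).

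Of the 17 hair keratins 3 were tested, and 2 were called lower. KRT34, a type I hair keratin, had 24.2, 11.1 and 20.2 CPM in HT1376 CT and 3.51, 3.57 and 6.57 in HT1376 FOXP3 KO (log2 -2.01 ± 0.32, edgeR adjusted p = 0.000715). KRT81, a type II hair keratin, had 2.87, 2.22 and 2.67 CPM against 0.171, 0 and 0.576 (log2 -3.24 ± 0.64, edgeR adjusted p = 0.00265). KRT86, a type II hair keratin, had 1.17, 1.35 and 0.978 CPM against 1.58, 1.78 and 2.25, higher without overlap but not called (log2 0.72 ± 0.37, edgeR adjusted p = 0.163). KRT78, a type II keratin of differentiating stratified epithelium, had 1.23, 1.03 and 1.35 CPM against 0.343, 0 and 0.288 (log2 -2.32 ± 0.66, edgeR adjusted p = 0.0205), and this call was lost without HT1376 CT library 11 (-2.28) or 13 (-2.21).

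KRT16, a keratin of hyperproliferating epithelium, had 7.26, 5.08 and 11.2 CPM in HT1376 CT and 3.08, 3.48 and 3.17 in HT1376 FOXP3 KO (log2 -1.28 ± 0.30, edgeR adjusted p = 0.00748). Its pseudogene KRT16P6 was called in the other direction. The KRT16P6 row held 31.0, 10.7 and 19.4 CPM in HT1376 CT and 128, 89.1 and 92.8 in HT1376 FOXP3 KO, a log2 fold change of 2.35 ± 0.30 (edgeR adjusted p = 0.000159). Over all libraries, the rows named as KRT16 pseudogenes held 92.8% of the counts of KRT16 and its copies together. With these rows added to KRT16 the log2 fold change was 1.93, in the other direction. Without HT1376 CT library 13 the KRT16 value was -0.89 and no longer called.

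The 2 remaining higher calls rest on few counts. KRT73, an inner root sheath keratin, was at 0 in all 3 HT1376 CT libraries and at 1.07, 0.268 and 0.518 CPM in HT1376 FOXP3 KO (37 counts in all). Measured against 3 counts per library this was at least 3.76-fold higher (edgeR adjusted p = 0.00539), and 37.8% of KRT73 exon bases overlap the antisense gene KRT73-AS1, so without a stated strand its reads cannot be assigned with certainty. KRT222, a keratin-like gene with 34.5% of its exon bases in another protein-coding gene, had 4 counts in HT1376 CT and 44 in HT1376 FOXP3 KO. The ratio was 14.3 (95% exact counting interval 5.21 to 54.8; edgeR adjusted p = 0.0174), which is an error of counting only, and the call was lost without HT1376 FOXP3 KO library 11 (log2 3.49).

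Under IFNγ, the question was the same for treated cells. Of 33 keratins tested, 7 were higher in HT1376 FOXP3 KO and 6 lower (21.2% and 18.2%), against 13.2% and 15.7% of the 24388 genes tested. The median log2 fold change was 0.71 over the keratins and 0.02 over all genes. KRT72, KRT73, KRT77 and KRT222 had 0 counts in treated HT1376 CT and entered the test through HT1376 FOXP3 KO alone. Such members could only come out higher, so the median and the share higher are not read as a result about the family. The number higher was 4 with filterByExpr, and 4 without HT1376 FOXP3 KO IFNγ library 13.

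KRT1, KRT14, KRT7, KRT13, KRT15, KRT34 and KRT80 were called in the same direction as without IFNγ. KRT1 had 0.968, 0.462 and 1.84 CPM in HT1376 CT and 68.0, 57.7 and 119 in HT1376 FOXP3 KO (log2 6.002 ± 0.38, edgeR adjusted p = 8.24e-07). KRT14 had 525, 277 and 397 CPM against 713, 699 and 1213 (log2 1.17 ± 0.24, edgeR adjusted p = 0.00354). KRT7 had 414, 372 and 515 CPM against 1351, 818 and 1466 (log2 1.52 ± 0.20, edgeR adjusted p = 0.000161). None of these 3 overlapped between the lines, and KRT13 was again lower, with 53.3, 34.6 and 46.0 CPM against 9.29, 9.29 and 14.7 (log2 -1.96 ± 0.22, edgeR adjusted p = 5.87e-05). KRT15 (log2 -1.57 ± 0.24, edgeR adjusted p = 0.000521) and KRT34 (log2 -2.05 ± 0.39, edgeR adjusted p = 0.00239) were lower too. KRT80 was lower by a log2 fold change of -1.45 ± 0.38 (edgeR adjusted p = 0.0139), a call lost without library 13 of either line (-1.32 without that of HT1376 CT and -1.24 without that of HT1376 FOXP3 KO). KRT16 (log2 0.08 ± 0.56, edgeR adjusted p = 0.937), KRT81 (-2.48, edgeR adjusted p = 0.0797) and KRT78 were not called under IFNγ. KRT78 had 25 counts in HT1376 FOXP3 KO and 1 in HT1376 CT, a ratio of 14.8 (95% exact counting interval 2.42 to 608; edgeR adjusted p = 0.101), higher without overlap, where without IFNγ it was lower. By library the HT1376 FOXP3 KO counts of KRT78 were 2, 1 and 22, so this ratio rests mostly on library 13.

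KRT10, KRT6A and KRT24 passed under IFNγ and not without it. KRT10 had 33.2, 14.3 and 27.1 CPM in treated HT1376 CT and 74.5, 39.0 and 97.9 in treated HT1376 FOXP3 KO (log2 1.52 ± 0.32, edgeR adjusted p = 0.00469). KRT6A had 33.8, 35.1 and 56.0 CPM against 12.0, 13.4 and 25.2 (log2 -1.26 ± 0.28, edgeR adjusted p = 0.00625). KRT24, a type I keratin of stratified epithelium, had 46.5, 18.2 and 26.2 CPM against 9.76, 12.6 and 8.41 (log2 -1.55 ± 0.31, edgeR adjusted p = 0.00292). These 3 did not overlap between the lines under IFNγ. Passing in 1 condition only does not show a different size, which the interaction test further on addresses.

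KRT72, KRT73 and KRT222 were at 0 counts in all treated HT1376 CT libraries. KRT73 had 0.602, 0.213 and 0.978 CPM in treated HT1376 FOXP3 KO, at least 1.56-fold above 3 counts per library (edgeR adjusted p = 0.0167). KRT72, another root sheath keratin, had 0.669, 0.107 and 0.457 CPM, at least 1.07-fold (edgeR adjusted p = 0.0372). KRT222 had 0.334, 0.427 and 0.359 CPM (edgeR adjusted p = 0.0344), which is under that floor, so no fold is given. These calls were weak. KRT73 was no longer called without library 13 of HT1376 CT (log2 6.17) or of HT1376 FOXP3 KO (5.33). KRT72 lost its call without any of HT1376 CT libraries 11 (5.77), 12 (5.88) or 13 (5.62) or HT1376 FOXP3 KO libraries 11 (5.21) or 13 (5.28). KRT222 lost its call without HT1376 CT library 11 (5.57) or 13 (5.42) or HT1376 FOXP3 KO library 11 (5.55) or 12 (5.49). DESeq2 called neither KRT72 nor KRT222.

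**Figure D3:**
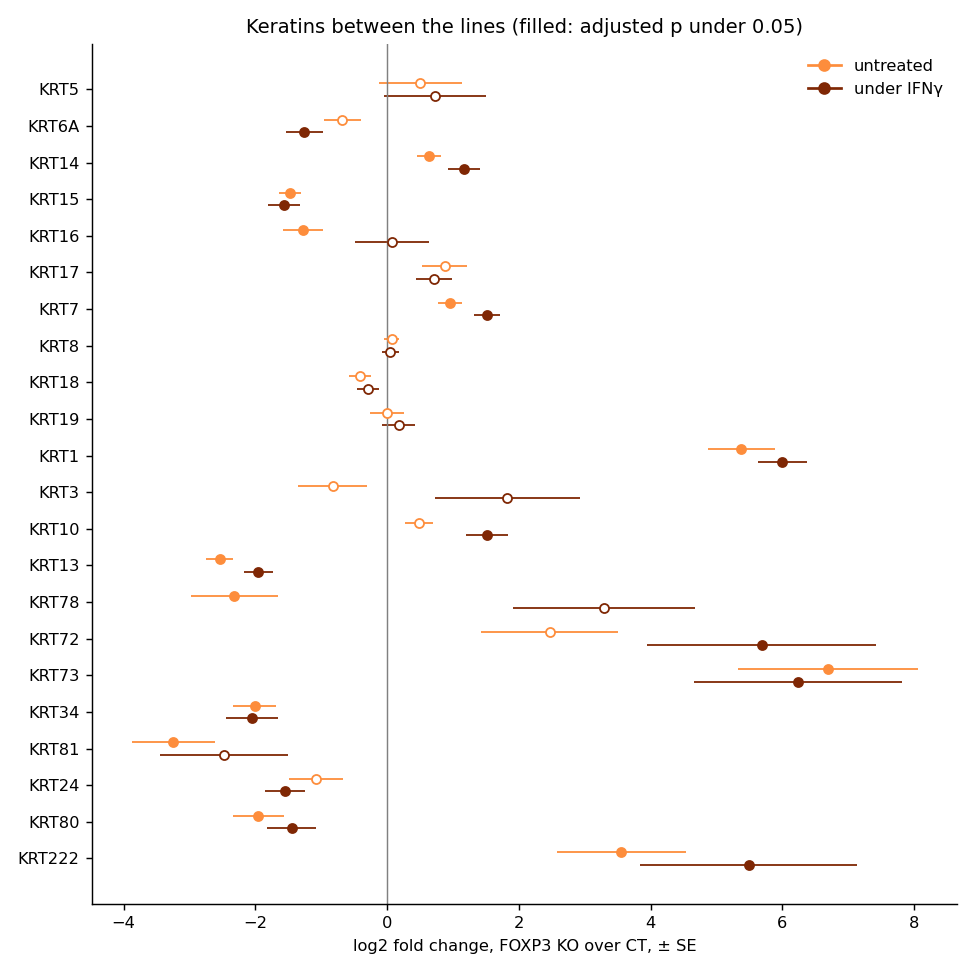
Log2 fold change of HT1376 FOXP3 KO over HT1376 CT for the named keratins other than KRT20 and for KRT8 and KRT19, untreated and under IFNγ, with horizontal bars for ± SE; filled points passed an edgeR adjusted p under 0.05. KRT1, KRT7 and KRT14 lie to the right and KRT13, KRT15, KRT34 and KRT80 to the left in both conditions, and the points of KRT72, KRT73 and KRT222 are fitted against groups at or near 0 counts.

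The luminal pair KRT8 and KRT18 and the luminal keratin KRT19 were not called between the lines without a replicate block. The log2 difference of KRT8 was 0.07 ± 0.12 untreated and 0.05 ± 0.13 under IFNγ, and that of KRT19 was 0.00 ± 0.25 and 0.18 ± 0.25 (edgeR adjusted p from 0.645 to 0.999 over these 4 values). KRT18 was at -0.42 ± 0.17 and -0.29 ± 0.17 (edgeR adjusted p = 0.0792 and 0.239). With the replicate number as a block KRT18 was called lower in both comparisons, at -0.45 ± 0.10 and -0.32 ± 0.10 (edgeR adjusted p = 0.00111 and 0.0129), and KRT8 and KRT19 were not. That fit called 15.9% of all genes higher and 20.6% lower untreated, and 16% and 17.9% under IFNγ. It also called KRT10 (0.47, edgeR adjusted p = 0.00485) and KRT17 (0.89, edgeR adjusted p = 0.00495) higher and KRT6A (-0.71, edgeR adjusted p = 0.000679) and KRT24 (-0.96, edgeR adjusted p = 0.00684) lower untreated, and KRT17 (0.67, edgeR adjusted p = 0.00191) higher and KRT81 (-3.04, edgeR adjusted p = 0.0298) lower under IFNγ, while KRT222 lost its call there (edgeR adjusted p = 0.072). Deviations from group means correlated across lines at 0.0407 to 0.136 for the same number and at -0.114 to 0.0706 for different numbers. These ranges overlapped, although number 12 alone was at 0.105 to 0.136, and numbers were not taken to pair libraries across lines. KRT8 and KRT18 overlap by 525 exon bases on opposite strands.

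The cells were also checked for lineage. The epithelial genes EPCAM, CDH1, CDH3, CLDN4 and CLDN7 were present in each library but summed to 335 to 394 CPM in untreated HT1376 FOXP3 KO against 859.9 to 1049 in HT1376 CT, and all 5 were called lower in both comparisons of the lines. Of 13 markers of leukocytes, endothelium, fibroblasts and muscle, untreated HT1376 FOXP3 KO had 5 at higher and 3 at lower levels (14% and 18.2% of all genes), and their sum was 482 to 734 CPM against 51.1 to 68.7. The largest were the matrix genes LUM (log2 8.65 ± 0.33, edgeR adjusted p = 2.71e-08) and DCN (6.88 ± 0.34, edgeR adjusted p = 1.65e-07), while CD3E, PECAM1 and VWF were at most 3 counts in each HT1376 FOXP3 KO library. The part of these shifts in the keratin differences was not tested. In bulk RNA, fewer cells of a type and less RNA per cell cannot be told apart.

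IFNγ was then compared with no treatment within each line. Both lines responded: IRF1, GBP1 and CXCL10, standard IFNγ targets, were called higher in each, for example IRF1 by a log2 fold change of 3.83 ± 0.11 in HT1376 CT (edgeR adjusted p = 1.74e-09) and 2.91 ± 0.11 in HT1376 FOXP3 KO (edgeR adjusted p = 6.86e-07). These comparisons use the same untreated and treated libraries as those between the lines. Libraries with the same number deviated together within a line. Each IFNγ result below is therefore also given from a fit with the number as a replicate block where the block changes its call.

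In HT1376 CT, 0 of 29 keratins tested were higher with IFNγ and 4 were lower (13.8%), against 3.53% and 1.82% of 24416 genes tested. At an unadjusted p under 0.05, 1 was higher and 9 lower, and DESeq2 called 1 higher and 6 lower. Without library 13 of either group only 2 were lower. With the replicate block 3 were higher and 12 lower (10.3% and 41.4%), against 8.67% and 9.88% of all genes. The adjusted p of such a fit depends on edgeR's deviance, and with the bias-adjusted deviance, added after the data were seen, 2 were higher and 12 lower. The median log2 fold change of the 29 was -0.40, against -0.02 over all genes tested. KRT3, KRT6C and KRT78 had at most 3 counts in each treated library and entered through the untreated ones. Such members could only come out lower, and KRT3 and KRT78 are among the 4 lower calls. The median and the shares lower, with or without the block, are thus not read as a result about the family. Of the 8 suprabasal keratins tested, 3 were called lower without the block and 6 with it, and the block called KRT3, KRT4, KRT9, KRT10, KRT13 and KRT78.

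KRT13 fell from 114, 69.8 and 80.2 CPM to 53.3, 34.6 and 46.0 in the libraries of the same numbers (log2 -0.94 ± 0.19, edgeR adjusted p = 0.0144, 3.17e-21 with the block and 1.59e-05 with the block and bias-adjusted deviance). The groups did not overlap, but without the block the call was lost without untreated library 11 (-0.71) or treated library 13 (-0.95). KRT78 fell from 85 counts in the 3 untreated libraries to 1 in the treated ones, a ratio of 41.0 (95% exact counting interval 7.16 to 1639; edgeR adjusted p = 0.00563). KRT3, a keratin known from the cornea, fell from 66 counts to 3, a ratio of 10.6 (3.48 to 52.8; edgeR adjusted p = 0.0268), and this call was lost without untreated library 11 (log2 -3.57), 12 (-3.18) or 13 (-3.70) or treated library 11 (-3.54) or 13 (-3.87).

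KRT16 went from 7.26, 5.08 and 11.2 CPM to 3.39, 3.23 and 3.52 (log2 -1.20 ± 0.31, edgeR adjusted p = 0.0489, and 5.93e-06 with the block). It was close to the threshold, and the call was lost without untreated library 11 (-1.25) or 13 (-0.84) or any of treated libraries 11 (-1.19), 12 (-1.19) and 13 (-1.22). It was also lost with filterByExpr (-1.18), bias-adjusted deviance (-1.25) and all 12 libraries in 1 fit (-1.21). With its pseudogene rows added the value was -0.23 and was not called.

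With the block, abundant keratins of HT1376 CT were called as well. KRT14 fell from 776, 493 and 663 CPM to 525, 277 and 397, lower in 3 of 3 pairs (log2 -0.69 ± 0.06, edgeR adjusted p = 3.2e-26 with the block, 7.62e-06 with bias-adjusted deviance too, and 0.101 without the block). KRT7 fell from 552, 600.4 and 783 CPM to 414, 372 and 515, also in 3 of 3 pairs (log2 -0.54 ± 0.06, edgeR adjusted p = 6.16e-17, 5.8e-05 and 0.0555 in the same order). KRT6A rose from 27.2, 17.3 and 31.4 CPM to 33.8, 35.1 and 56.0, higher in 3 of 3 pairs (log2 0.73 ± 0.12, edgeR adjusted p = 6.58e-09, 0.00184 and 0.108). The basal keratins thus moved both ways, with KRT14 lower and KRT6A higher.

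KRT24 rose from 33.4, 7.78 and 18.0 CPM to 46.5, 18.2 and 26.2 in 3 of 3 pairs (log2 0.68 ± 0.13, edgeR adjusted p = 3.11e-06 with the block and 0.486 without). KRT17 went from 46.5, 19.6 and 57.1 CPM to 44.9, 46.2 and 76.1, higher in 2 of 3 pairs (log2 0.48 ± 0.10, edgeR adjusted p = 3.75e-05 with the block, 0.0881 with bias-adjusted deviance too, which ends the call, and 0.511 without the block). KRT80 (log2 -0.76 ± 0.19), KRT81 (-1.21 ± 0.42), KRT19 (-0.22 ± 0.06) and KRT10 (-0.43 ± 0.12) were lower with the block only, with edgeR adjusted p from 0.000457 to 0.0256. KRT8 and KRT18 were called in neither fit.

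In HT1376 FOXP3 KO, 0 of 33 keratins were called in either direction by edgeR, against 0.978% higher and 0.00414% lower of 24131 genes tested. DESeq2 also called 0, and 1 keratin had an unadjusted p under 0.05 in each tool. With the replicate block 2 were higher and 1 lower (6.06% and 3.03%), against 3.92% and 1.6% of all genes. KRT10 rose from 49.9, 31.8 and 59.8 CPM to 74.5, 39.0 and 97.9, higher in 3 of 3 pairs (log2 0.57 ± 0.08, edgeR adjusted p = 4.08e-10 with the block, 0.000131 with bias-adjusted deviance too, and 0.999 without the block). KRT17 rose from 48.1, 101 and 75.6 CPM to 53.6, 115 and 99.6 (log2 0.27 ± 0.07, edgeR adjusted p = 0.00791 with the block). KRT14 fell from 915, 811 and 1244 CPM to 713, 699 and 1213 (log2 -0.19 ± 0.05, edgeR adjusted p = 0.00243 with the block), and this call was lost with the bias-adjusted deviance (edgeR adjusted p = 0.054).

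**Figure D4:**
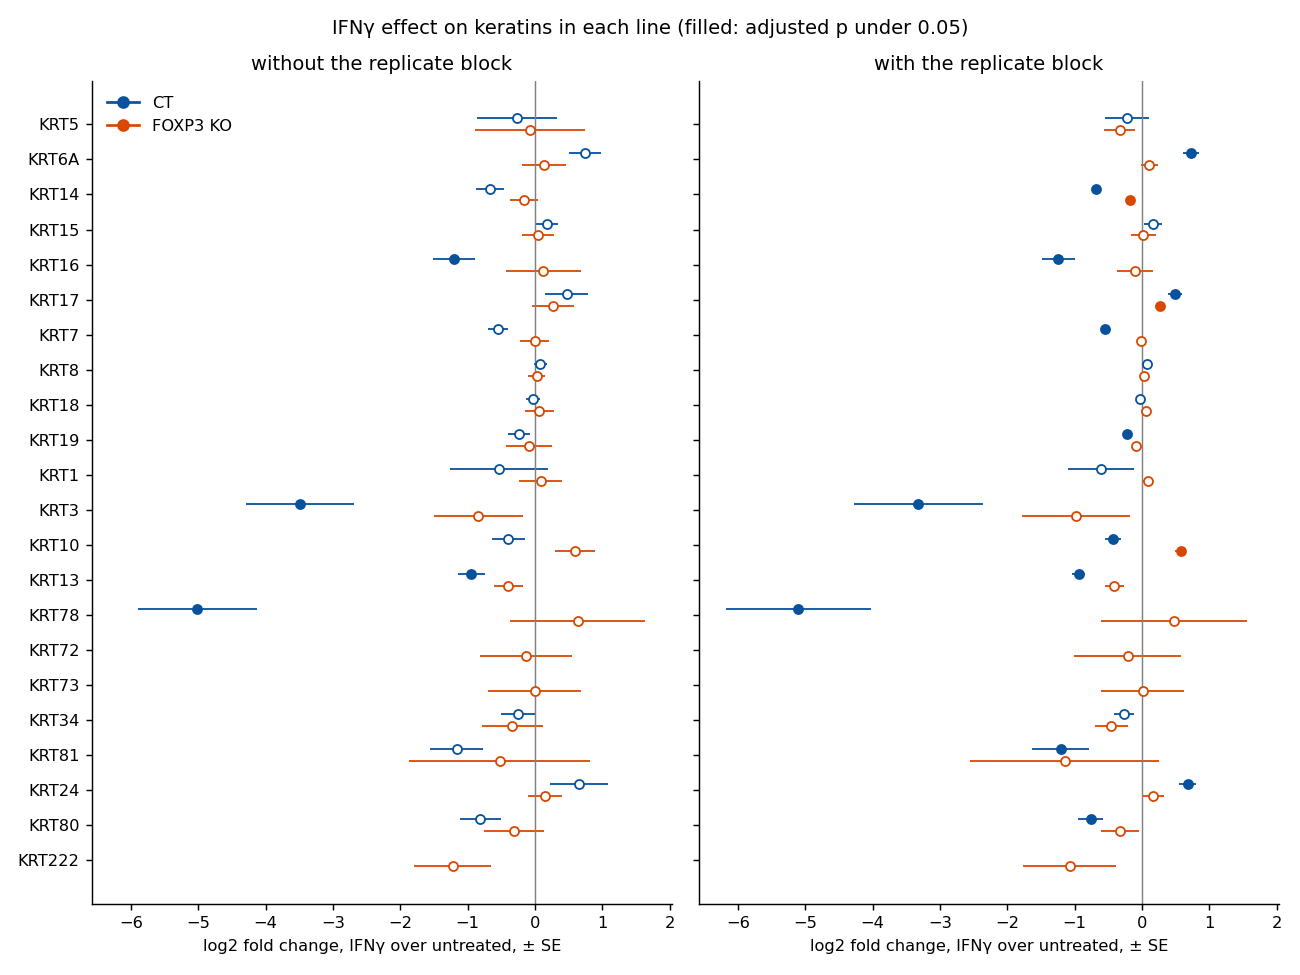
Log2 fold change of IFNγ over untreated for the named keratins other than KRT20 and for KRT8 and KRT19, in HT1376 CT and HT1376 FOXP3 KO, with horizontal bars for ± SE, without (left) and with (right) the replicate block; filled points passed an edgeR adjusted p under 0.05 and genes too low to be tested have no point. Without the block 4 keratins of HT1376 CT are filled and none of HT1376 FOXP3 KO; with it KRT14 and KRT7 of HT1376 CT lie to the left and KRT10 lies on opposite sides in the lines.

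To ask whether IFNγ acted differently in the lines, an interaction term was fitted to all 12 libraries. Of 38 keratins, 0 were called by edgeR or by DESeq2, against 0.0036% higher and 0.108% lower of 27806 genes, and 3 had an unadjusted p under 0.05 in each tool. For KRT10 the difference, the IFNγ effect in HT1376 FOXP3 KO minus that in HT1376 CT, was 0.99 ± 0.45 on the log2 scale (edgeR adjusted p = 0.780).

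Because numbers paired libraries within a line, the interaction was also fitted with a replicate block within each line and edgeR's bias-adjusted deviance, a setting added after the data were seen. This called 4 keratins higher and 1 lower, against 1.65% and 1.47% of all genes tested. KRT10 differed by 0.96 ± 0.14 (edgeR adjusted p = 0.000202), KRT7 by 0.52 ± 0.08 (edgeR adjusted p = 0.000462) and KRT14 by 0.49 ± 0.09 (edgeR adjusted p = 0.00102). For KRT7 and KRT14 the IFNγ effect was less negative in HT1376 FOXP3 KO, and for KRT10 it had opposite signs in the lines. KRT6A differed by -0.63 ± 0.17 (edgeR adjusted p = 0.0497), close to the threshold. KRT78 differed by 5.62 ± 1.39 (edgeR adjusted p = 0.0229), where the treated HT1376 CT libraries held 1 count. KRT13 (0.52 ± 0.16, edgeR adjusted p = 0.0765) and KRT24 (-0.45 ± 0.19, edgeR adjusted p = 0.3) were not called. With 1 block shared by both lines only KRT10 (1.03 ± 0.20, edgeR adjusted p = 0.00558) and KRT78 (5.89 ± 1.45, edgeR adjusted p = 0.0364) were called among the 38, against 0.525% higher and 0.683% lower of all genes.

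**Figure D5:**
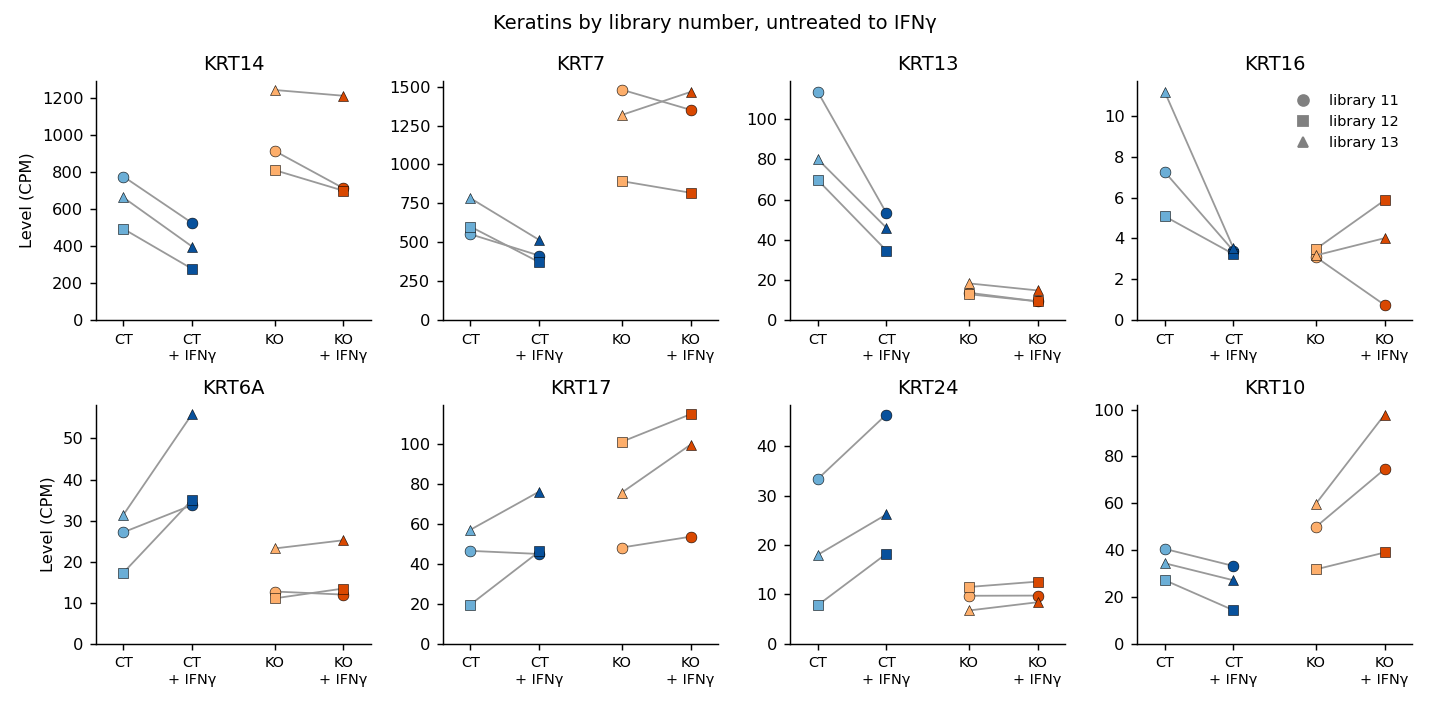
Level in CPM of 8 keratins before and after IFNγ, with lines joining libraries of the same number within HT1376 CT (left of each panel) and HT1376 FOXP3 KO (right of each panel). In HT1376 CT all 3 lines fall for KRT14, KRT7, KRT13 and KRT16 and rise for KRT6A and KRT24, and KRT10 falls in all 3 pairs of HT1376 CT and rises in all 3 of HT1376 FOXP3 KO.

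Genes for proteins that anchor keratin filaments were compared in the same way. Of 19 genes of desmosomes and hemidesmosomes and their linkers, untreated HT1376 FOXP3 KO had 3 at higher and 10 at lower levels, where 14% and 18.2% of all genes were called, with a list median of -0.36 on the log2 scale against -0.02 over all genes tested. The largest changes were in the desmosomal cadherin DSG3 (-2.65 ± 0.37, edgeR adjusted p = 0.000247), the plakophilins PKP2 (2.61 ± 0.24, edgeR adjusted p = 1.36e-05) and PKP1 (-1.96 ± 0.19, edgeR adjusted p = 2.2e-05), and periplakin, PPL (-2.05 ± 0.14, edgeR adjusted p = 1.99e-06). Under IFNγ 5 were higher and 5 lower (13.2% and 15.7% of all genes). With IFNγ in HT1376 CT, 1 was higher and 7 lower, the largest being the desmosomal cadherin DSG1 (-1.91 ± 0.30, edgeR adjusted p = 0.00267), and with the block 1 was higher and 12 lower. All genes were called at 3.53% and 1.82% there, and at 8.67% and 9.88% with the block. In HT1376 FOXP3 KO 0 of the 19 were called with IFNγ by edgeR, and the block called 2 higher and 4 lower (3.92% and 1.6% of all genes).

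The same shares of all genes apply to the next lists. Of 15 other intermediate filament genes, 7 were tested between the untreated lines, and HT1376 FOXP3 KO had 1 at a higher level and 4 at lower levels. Synemin, SYNM (-6.27 ± 0.30, edgeR adjusted p = 1.29e-07), and nestin, NES (-5.80 ± 0.50, edgeR adjusted p = 8.54e-06), were the largest, and the lamin LMNB1 was higher (0.58 ± 0.13, edgeR adjusted p = 0.00611). VIM, the mesenchymal filament vimentin, was at 0.238 CPM or less in every library. Under IFNγ 1 was higher and 2 lower, and with IFNγ 0 were called in either line without the block. The block called 1 higher and 3 lower of the 8 tested in HT1376 CT, and 0 in HT1376 FOXP3 KO. Of 15 epithelial transcription factors, 13 were tested, and 3 were at higher and 5 at lower levels in untreated HT1376 FOXP3 KO. They include GRHL3 (-3.74 ± 0.37, edgeR adjusted p = 2.14e-05), OVOL1 (-2.39 ± 0.24, edgeR adjusted p = 2.83e-05) and KLF4 (-1.27 ± 0.11, edgeR adjusted p = 8.07e-06), regulators of epithelial differentiation, and PPARG (1.45 ± 0.16, edgeR adjusted p = 4.24e-05). The other higher calls were TP63 (0.60 ± 0.16, edgeR adjusted p = 0.0142) and KLF5 (0.34 ± 0.11, edgeR adjusted p = 0.0368). The other lower calls were GATA3 (-0.68 ± 0.11, edgeR adjusted p = 0.000994) and TFAP2A (-0.49 ± 0.10, edgeR adjusted p = 0.00431). Under IFNγ 3 were higher and 4 lower. With IFNγ in HT1376 CT 1 was higher and 2 lower without the block, among them PPARG (-0.90 ± 0.22, edgeR adjusted p = 0.0332). With the block 4 were higher and 4 lower there. In HT1376 FOXP3 KO 0 were called without the block, and 3 were higher and 0 lower with it.

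Promoter sequence from RefSeq (GRCh38.p14, 250 bases before to 50 after each gene start) was held for 34 of the 55 keratins, in 38 windows. The forkhead motif TAAACA occurred on either strand in 21.1% of these windows and in 12.3% of all 35116 promoter windows. The forkhead motif TGTTTAC, which holds the reverse complement of TAAACA, occurred in 2.63% and 3.42%, and the AP-1 motif TGANTCA in 0% and 7.71%. The TATA box letters TATAAA, read on the gene strand only, occurred in 50% of keratin windows and 7.33% of all. Besides KRT10, matches to TAAACA lay in windows of KRT2, KRT4, KRT20, KRT39, KRT40, KRT84 and KRT85, none of which was called between the lines. KRT24, KRT34 and KRT73 were called between the lines under IFNγ, KRT34 and KRT73 also without it, and their windows held none. The 21 keratins without a window could not be searched. KRT10 is shown as the only keratin with a window that was called between the lines and had a match. It held 2 matches to TAAACA, 1 at 15 bases after its start and 1 at 183 bases before it. The latter (chr17:40822780-40822809, minus strand) is printed 5′ to 3′ on the gene strand with the match in capitals, and a match is a description of letters only.
KRT10 forkhead match: tagcaaacctccTGTTTAttcttagggcaa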

How the data were processed

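Total RNA of HT1376 CT and HT1376 FOXP3 KO was sequenced after ribosomal RNA depletion. The authors aligned reads to GRCh38 with STAR (2.7.11a in the submitters' processing notes), used Kraken to take out Mycoplasma reads and counted with htseq-count. The deposited values are raw whole-number counts, and the strand setting is not given in the sources used here. Groups follow the sample labels.

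Fits across all genes used the edgeR 4.0.16 quasi-likelihood test (R 4.3.3, default settings, TMM) on genes whose counts over the fit summed to 10 or more, with calls at an adjusted p under 0.05. The SE is the log2 fold change over the square root of F. Lengths are exon unions of GENCODE 44. At the depths found, 3 counts are 0.0764 to 0.668 CPM. Intervals cover counting error only.

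Named keratins are KRT5, KRT14, KRT17, KRT18 and KRT20 and each member called in a test with over 3 counts in at least 2 libraries. KRT4, KRT8, KRT9, KRT19, KRT86 and KRT16P6 were named after their values were seen. Members and lists were chosen with earlier results of these data known. Numbers 11 to 13 come from the labels. Deviations from group means correlated at 0.139 to 0.267 for the 6 same-number pairs within a line and at 0.0407 to 0.136 between lines, so numbers were taken to pair libraries within a line only. Scripts were tested on simulated data. Alternatives were other normalizations and filters, DESeq2 1.42.0, bias-adjusted deviance, a replicate block, all libraries in 1 fit, copies summed and leaving out libraries. A few items are not reported here.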

Additional observations from a re-analysis of the deposited data

Results flagged for a closer look

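KRT10 was set aside because IFNγ moved it in opposite directions in the lines. It was lower in each treated HT1376 CT library than in the untreated library of the same number (log2 differences of -0.29, -0.92 and -0.34 for numbers 11, 12 and 13) and higher in each treated HT1376 FOXP3 KO library (0.58, 0.30 and 0.71). The interaction was 0.99 on the log2 scale and was not called without a replicate block (edgeR adjusted p = 0.780), but was called with the block within each line and bias-adjusted deviance (0.96, edgeR adjusted p = 0.000202). Named keratins with more than 3 counts in every library were examined for such a pattern, and no other showed it. KRT10 overlaps an antisense gene by 2.82% of its exon bases.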

How the results depend on the processing

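Of 458 recomputations of the 29 single-gene calls, 414 kept direction and call, 43 kept direction and lost the call, and 1 reversed: KRT16 between the untreated lines, at 1.93 on the log2 scale with close copies summed, where the counts of the copies enter the sum. Keratins higher in untreated HT1376 FOXP3 KO numbered 3 with an absolute log2 fold change over 1 required and 3 with filterByExpr, which tests fewer genes. Under IFNγ, 4 were higher with filterByExpr, and 4 to 7 with 1 library left out. With IFNγ in HT1376 CT, DESeq2 called 1 higher, no filter 3 higher and 8 lower, and leaving out 1 library 2 to 3 lower. The replicate block called 3 higher and 12 lower there, and 2 and 12 with bias-adjusted deviance. In HT1376 FOXP3 KO the block called 2 higher and 1 lower, bias-adjusted deviance with it 2 higher, and leaving out number 12 of each group 1 higher. For the interaction, 2 were higher with no filter, 2 with 1 replicate block over both lines (1 with bias-adjusted deviance), and 4 higher and 1 lower with the block within each line. Between lines, where same-number libraries correlated at 0.105 to 0.136 for number 12 but below 0.1 for numbers 11 and 13, the block gave 7 higher and 10 lower untreated and 7 and 8 under IFNγ. The cause of these changes was not tested.

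In the order CT, CT with IFNγ, KO and KO with IFNγ, the basal share was 15.7%, 12.5%, 20.7% and 19.1% without length correction and 37.6%, 28.9%, 56.3% and 52.5% with KRT5, KRT14 and KRT17 against KRT18 and KRT20. With the longest transcript it was 14.3%, 23.1% and 21.4% in the last 3. The type I to type II ratio was 2.10, 2.04, 1.43 and 1.39 with the longest transcript and 1.66, 1.55, 1.18 and 1.15 without length correction, so its size depends on length but HT1376 CT stayed above HT1376 FOXP3 KO in each. Genes at few counts (KRT20, KRT72, KRT73, KRT222) are limited by depth, most of all in the shallowest library, treated HT1376 CT 12.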

Other observations

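The library number moved with several abundant keratins. KRT19 was highest in the library numbered 12 of each of the 4 groups, with 834, 652, 964 and 907 CPM in HT1376 CT, HT1376 CT with IFNγ, HT1376 FOXP3 KO and HT1376 FOXP3 KO with IFNγ, against 593 or less in all other libraries. KRT18 was lowest in number 12 in each group, with 1375, 1273, 789.8 and 810.3 CPM, and so was KRT10, with 27.2, 14.3, 31.8 and 39.0 CPM. The labels do not say what the numbers mark. The number 12 libraries were the shallowest of each group, from 4490684 to 12705778 counts, and the part of depth in these levels was not tested.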
